A study of Mus musculus with 8 samples.

Results

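The trophectoderm is the outer epithelium of the blastocyst, from which the placental trophoblast arises. The 10 genes described here are 5 transcription factors of that lineage (Cdx2, Elf5, Tead4, Tfap2a and Hand1), the placental gene Plac1 and 4 keratins of simple epithelium (Krt7, Krt8, Krt18 and Krt19). They were chosen by name and matched to Ensembl identifiers, and all 10 are among the 46078 gene IDs of the count files. TEAD4 switches on Cdx2 in the early trophectoderm together with its partner YAP, CDX2 and ELF5 maintain trophoblast stem cells, TFAP2A (AP-2 alpha) and HAND1 act in later trophoblast and in other embryonic tissues, and PLAC1 is a surface-associated protein of the placenta. Keratins are intermediate filament proteins that polymerise as pairs of a type II member (KRT7, KRT8) and a type I member (KRT18, KRT19), and the KRT8 and KRT18 pair is the first to appear in the embryo, in the trophectoderm. The same keratins also line visceral endoderm, mesothelium and glandular epithelia.

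Bulk RNA-sequencing libraries of 4 groups of male (XY) C57BL/6 mouse cells were analysed, with 2 libraries in each group. tcESCs are an embryonic stem cell (ESC) line with the tesco-cfp reporter (CFP under a testis enhancer of Sox9), and tc;Sf1ESCs are 1 drug-selected clone of them with a constitutive Sf1 (Nr5a1) transgene from a pcDNA3 vector, both kept in 2iLIF medium. SCLCs (Sertoli cell-like cells, called testicular somatic cell-like cells in the labels) are CFP-positive cells sorted on day 12 from a culture of tc;Sf1ESCs treated with CHIR99021 and TTNPB and then with CHIR99021, BMP7 and FGF9, so they carry both transgenes. todPGCLCs are primordial germ cell-like cells of another line, Prdm1-gfp, that were made from epiblast-like cells cultured together with tc;Sf1TesLCs (the unsorted culture that holds SCLCs) and sorted on day 6, so that line and cell type cannot be told apart in any comparison of them with the other groups.

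The libraries held 25411033 to 30680191 counts on genes, at which 3 counts equal 0.0978 to 0.118 CPM, the usual scaling of counts to library size. Such limits cover counting error only. Nr5a1 had 1 and 0 counts in tcESCs, 52 and 30 in tc;Sf1ESCs and 341 and 535 in SCLCs, lowest in the cells without the Sf1 transgene. The genotype does not order tc;Sf1ESCs and SCLCs, which share it. In SCLCs the Sertoli list was led by Gata4 at 423 CPM, while Sox9 had 206 and 130 counts, Amh 10 and 22, and Fshr 0 in both libraries. Replicates of each group differed by more than counting noise, most in SCLCs (chi-square per degree of freedom 27.6, against 1.41 to 8.94 in the other groups). The series calls the pairs biological duplicates, and p-values describe the spread between these libraries only.

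Levels are given in CPM and differences as log2 fold changes with standard errors from edgeR's quasi-likelihood test. A gene was called when the change exceeded 2-fold with a Benjamini-Hochberg adjusted p under 0.05 over all genes tested, and "rose" and "fell" are used for called genes only. Elf5 did not pass the filter (a mean count above 10), so 9 of the 10 genes were tested in each comparison. Of these 9, Hand1 and Plac1 averaged less than 10 counts over the 4 ESC libraries and passed only through SCLCs and todPGCLCs, so the counts of members are a description. Genes of other lists that averaged 10 counts or less over the 4 ESC libraries are left out of the counts given for those lists, since they were tested only through the groups where they were high. Some of these genes are named, most of them with their own counts.

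The 4 keratin transcripts were ordered alike over the groups, highest in SCLCs, then todPGCLCs, then tcESCs and lowest in tc;Sf1ESCs. Krt8 measured 25.7 and 33.1 CPM in tcESCs, 7.41 and 7.59 in tc;Sf1ESCs, 339 and 422 in SCLCs and 53.8 and 80.4 in todPGCLCs. Krt18, its partner in the filament, measured 22.4 and 30.5 CPM in tcESCs, 0.887 and 0.759 in tc;Sf1ESCs, 374 and 466 in SCLCs and 87.8 and 89.9 in todPGCLCs. Krt19, a type I keratin without the tail domain of other keratins, measured 1.34 and 1.47 CPM in tcESCs, 0.193 and 0.181 in tc;Sf1ESCs, 139 and 171 in SCLCs and 31.9 and 33.3 in todPGCLCs. For each of these genes no library of a group overlapped with a library of another group.

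Krt7, the type II keratin of ducts and trophoblast, measured 4.13 and 5.15 CPM in tcESCs, 0.270 and 0.289 in tc;Sf1ESCs (7 and 8 counts), 19.5 and 40.7 in SCLCs and 17.6 and 16.9 in todPGCLCs. Its SCLC and todPGCLC libraries did not overlap but lay close, and that is the only neighbouring pair in the keratin order without a call (log2 fold change -0.94, standard error 0.29, adjusted p 0.0171 by edgeR, under the 2-fold limit). Without SCLC replicate 1 it was called, at -1.38, and without SCLC replicate 2 it was -0.32.

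**Figure D1:**
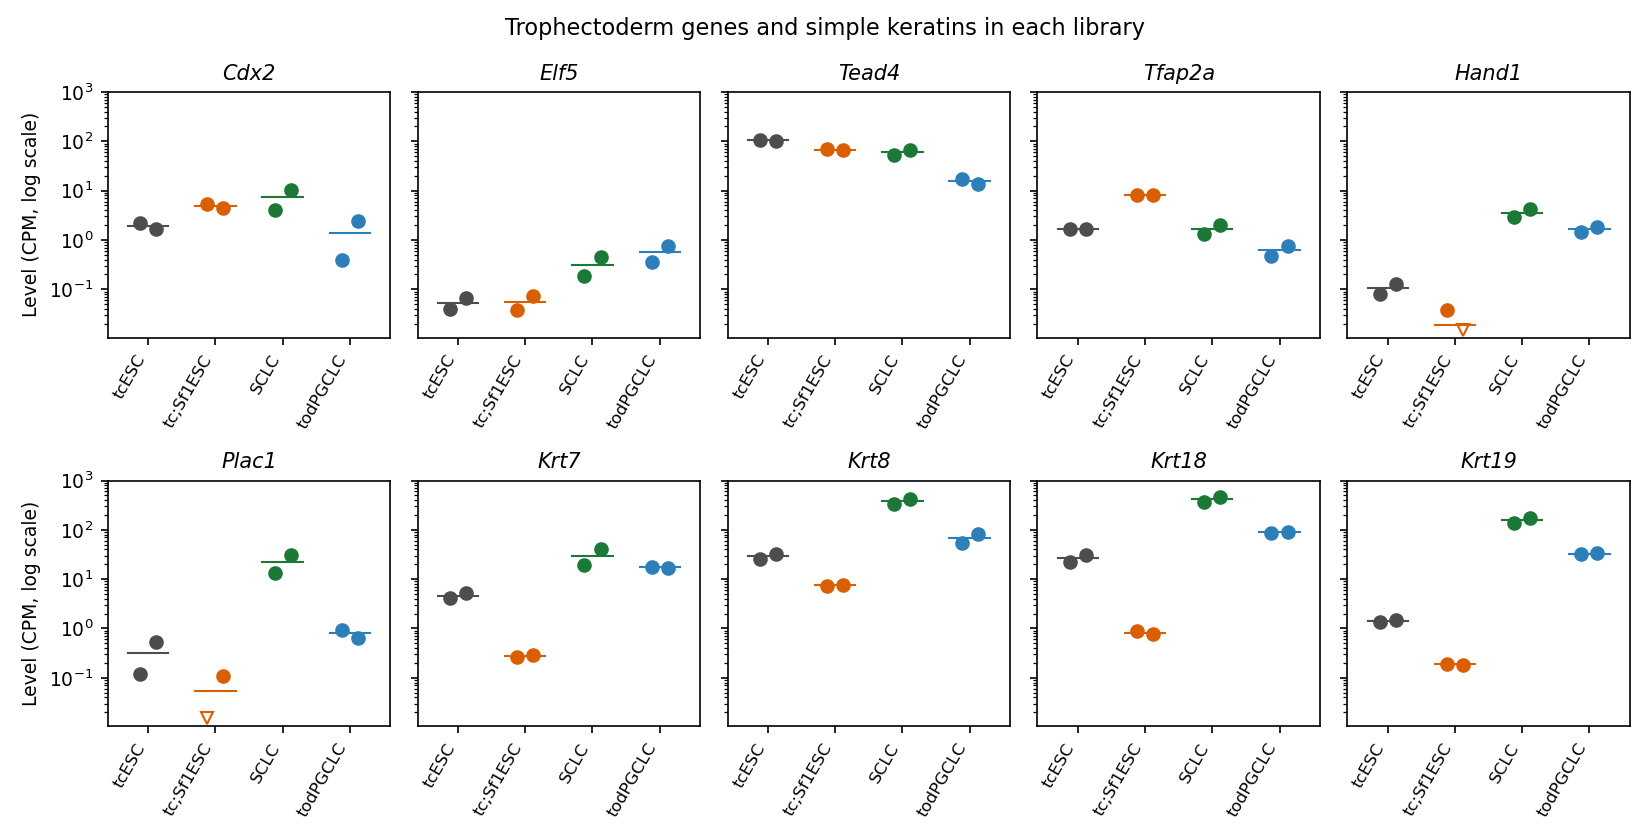
Level of each gene in every library, in CPM on a log axis, with 1 point per library and a short line at the mean of each group of 2. Open triangles at the bottom mark libraries with 0 counts (Hand1 and Plac1 in tc;Sf1ESCs). The keratins run from below 10 CPM in tc;Sf1ESCs to as much as 466 CPM in SCLCs, while Tead4 is highest in tcESCs and Tfap2a in tc;Sf1ESCs.

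The 3 keratin genes on chromosome 15 are shown with the sequence around their transcription start, since they moved together in every comparison with an ESC line. In GRCm38, Krt8 (chr15:101996698-102004482, minus strand) and Krt18 (chr15:102028180-102032027, plus strand) are divergent neighbours 23697 bases apart, and Krt7 (chr15:101411043-101430313, plus strand) lies 566384 bases away from Krt8. Krt19 (chr11:100140810-100148665, minus strand) lies on chromosome 11. The windows run 5′ to 3′ from 250 bases before to 50 bases after the RefSeq start (GRCm38.p6), at chr15:101412153-101412452 for Krt7, chr15:102004293-102004592 on the minus strand for Krt8 and chr15:102027966-102028265 for Krt18. Capitals mark matches to the motif letters that were searched for, the AP-2 letters GCCNNNGGC in Krt7 and Krt18, and the GATA letters AGATAA followed by overlapping matches to the TATA letters TATAAA on both strands in Krt8.
Krt7: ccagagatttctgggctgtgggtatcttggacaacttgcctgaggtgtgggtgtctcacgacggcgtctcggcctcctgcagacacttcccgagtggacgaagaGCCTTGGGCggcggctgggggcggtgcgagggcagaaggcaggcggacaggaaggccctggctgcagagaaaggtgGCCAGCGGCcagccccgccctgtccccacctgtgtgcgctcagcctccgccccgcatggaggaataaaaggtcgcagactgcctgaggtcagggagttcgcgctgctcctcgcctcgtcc
Krt8: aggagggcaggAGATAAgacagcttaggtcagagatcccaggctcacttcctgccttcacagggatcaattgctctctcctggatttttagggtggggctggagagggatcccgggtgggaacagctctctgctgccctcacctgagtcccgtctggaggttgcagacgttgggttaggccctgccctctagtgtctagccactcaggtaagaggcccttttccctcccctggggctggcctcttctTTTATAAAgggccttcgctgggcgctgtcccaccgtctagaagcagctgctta
Krt18: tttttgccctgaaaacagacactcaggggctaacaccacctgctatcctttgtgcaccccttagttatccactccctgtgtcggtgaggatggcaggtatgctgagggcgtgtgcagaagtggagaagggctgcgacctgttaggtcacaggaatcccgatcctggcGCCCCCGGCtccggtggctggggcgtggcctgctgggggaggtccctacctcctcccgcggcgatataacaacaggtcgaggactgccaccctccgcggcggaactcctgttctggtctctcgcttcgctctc

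RefSeq windows were matched for 7 of the 10 genes (all but Tead4, Hand1 and Krt19). The AP-2 letters occurred in 16.6% of the 32851 mouse windows searched on both strands, and among the 7 they occurred in Krt7 (starting at -146 and -70 from the start site), Krt18 (-83) and Cdx2 (-16). The GATA letters were found in Krt8 (-239) and Plac1 (-246), against 11.2% of all windows, and the CDX letters TTTATNG, which can overlap the TATA letters, in Plac1 (-183), against 10.9%. The TEAD letters GGAATG occurred in Elf5 (-173), against 14.7% of windows. The letters CAAGGTCA, read by SF1 and its relatives, are in 1.56% of windows and were in none of those of the 7 genes, and neither were the AP-1 letters TGANTCA (7.81%). Such matches describe the letters of these windows only.

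Between tc;Sf1ESCs and tcESCs, which differ by the Sf1 transgene and by the selection of 1 clone, the keratins fell and Tfap2a rose. Of the 9 genes tested, 4 fell (Krt7, Krt8, Krt18 and Krt19) and 1 rose, while 11.7% of the 16481 genes in the fit were called, 5.62% lower and 6.04% higher. Krt18 changed most (log2 fold change -4.99, standard error 0.26, adjusted p 6.01e-05 by edgeR), a 31.8-fold lower level. Krt7 fell by 4.02 (standard error 0.56), Krt19 by 2.87 (0.35) and Krt8 by 1.96 (0.16) on the log2 scale. All of these calls held in each fit that left out 1 library.

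Tfap2a, by contrast, had 43 and 50 counts in tcESCs and 216 and 228 in tc;Sf1ESCs. It rose (log2 fold change 2.33, standard error 0.23, adjusted p 0.000571 by edgeR), to 8.28 ± 0.0657 CPM (SD, n = 2) from 1.66 ± 0.0442. The antisense gene Gm26688, which overlaps Tfap2a, had at most 8 counts in any library, and the pseudogene Gm21893 opposite Tead4 at most 4.

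Cdx2 had 57 and 50 counts in tcESCs and 137 and 124 in tc;Sf1ESCs, without overlap, a difference of 1.35 on the log2 scale (standard error 0.46, adjusted p 0.0616 by edgeR). It was called with DESeq2 (adjusted p 0.021) and in edgeR fits without either SCLC library, with only the 4 libraries compared or with every gene of at least 1 count. Tead4 had 2712 and 3158 counts in tcESCs and a lower 1789 and 1833 in tc;Sf1ESCs. That difference (log2 fold change -0.62, standard error 0.099, adjusted p 0.00359 by edgeR) stayed under the 2-fold limit, and the median over the genes of its chromosome, 6, was -0.31. Counts of Hand1 summed to 6 over both tcESC libraries and 1 over both tc;Sf1ESC libraries, and Plac1 19 and 3. The ratio of tc;Sf1ESCs to tcESCs was 0.174 (95% counting interval 0.00379 to 1.44) for Hand1 and 0.165 (0.0313 to 0.561) for Plac1, and neither was called. Both genes passed the filter only through their counts in SCLCs.

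Because Krt18 fell further than Krt8, the balance of the filament partners differed between the ESC lines. To compare genes, CPM was divided by the length of the merged exons in kb. The summed type II level (Krt7 and Krt8) was 0.842 and 0.801 of the summed type I level (Krt18 and Krt19) in the tcESC libraries, 5.30 and 6.26 times it in tc;Sf1ESCs, 0.525 and 0.531 in SCLCs and 0.383 and 0.540 in todPGCLCs. Only tc;Sf1ESCs had more type II than type I transcript. With 2 libraries against 2 an exact two-sided permutation test can reach no p below 0.333, which is the value it gave for this ratio. Krt19 made up 4.42% and 3.59% of type I transcript in tcESCs, 14.4% and 15.6% in tc;Sf1ESCs and 22.0% to 22.3% in the libraries of SCLCs and todPGCLCs. In tc;Sf1ESCs the type I level, and so both the ratio and the share, rested on 23 and 21 counts of Krt18 and 5 and 5 of Krt19. Krt7 gave at most 8.35% of type II transcript in any library, on a merged exon length of 7049 bases that is longer than the 1958 of Krt8.

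**Figure D2:**
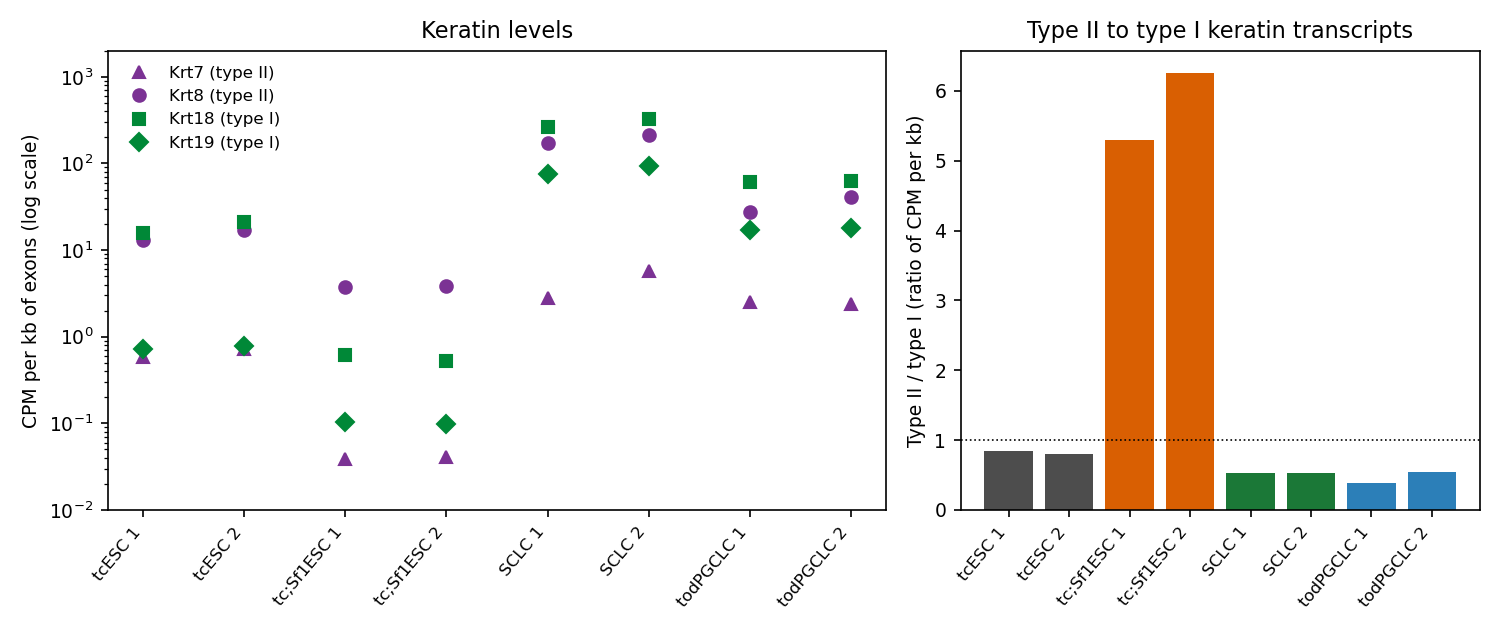
Left, level of the 4 keratins in each library in CPM per kb of merged exons (log axis), with type II genes in purple and type I genes in green. Right, summed type II level over summed type I level in each library, as bars from 0, with a dotted line at equal levels. The tc;Sf1ESC libraries stand at 5.30 and 6.26 and the other 6 below 1.

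Other genes of the trophoblast moved with the keratins in tc;Sf1ESCs. Of 20 listed genes 16 were tested, of which Tpbpa, Ctsq, Syna and Dlx3 passed the filter through SCLCs. Of the other 12, 9 fell and none rose (median log2 fold change -1.84, beside 0.00096 over all genes tested), where 5.62% of all genes tested were lower. Among the genes called, the largest changes were in Peg10, a retrotransposon-derived gene needed for the placenta (-5.44, standard error 0.26), Rhox6, a homeobox gene of the placenta (-2.69, 0.37), the trophoblast transcription factor Gata3 (-2.59, 0.72) and the placental homeobox gene Esx1 (-1.96, 0.32). Eomes, Ets2, Ascl2, Rhox9 and Gata2 fell as well. Of 12 desmosome and keratin linker genes 10 were not called (median -0.12 over the 12) and 2 fell, the desmosomal cadherin Dsc2 (-2.39, 0.50) and the plakin Ppl (-1.02, 0.20). Peg10 measured 715 and 711 CPM in tcESCs and 15.3 and 17.3 in tc;Sf1ESCs.

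Of 11 other intermediate filament and lamin genes tested, 3 rose and 1 fell in tc;Sf1ESCs (median log2 fold change -0.23), where 6.04% of all genes tested were higher and 5.62% lower. Vim (vimentin, the filament of mesenchymal cells) measured 138 and 146 CPM in tcESCs and 515 and 522 in tc;Sf1ESCs, a log2 fold change of 1.88 (standard error 0.10). Nes (nestin, of neural and other progenitors) rose by 1.91 (0.13) and Lmna (lamin A/C of the nuclear lamina) by 1.21 (0.068), and Synm (synemin) fell by 1.36 (0.33). The other 7 were not called, at -0.72 (Ina) to 0.88 (Des). Among 2 other keratins counted Krt17 rose (1.79, 0.24), from 22 and 30 counts to 79 and 91. Among regulators of epithelia Grhl2, a grainyhead-like factor, rose (1.22, 0.22) and 8 of 9 were not called. The mesoderm factor T rose by 2.68 (0.26), the only one of 5 genes tested in a list of Cdx2 relatives and caudal mesoderm that was called, and it had 37 and 47 counts in tcESCs and 227 and 286 in tc;Sf1ESCs.

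**Figure D3:**
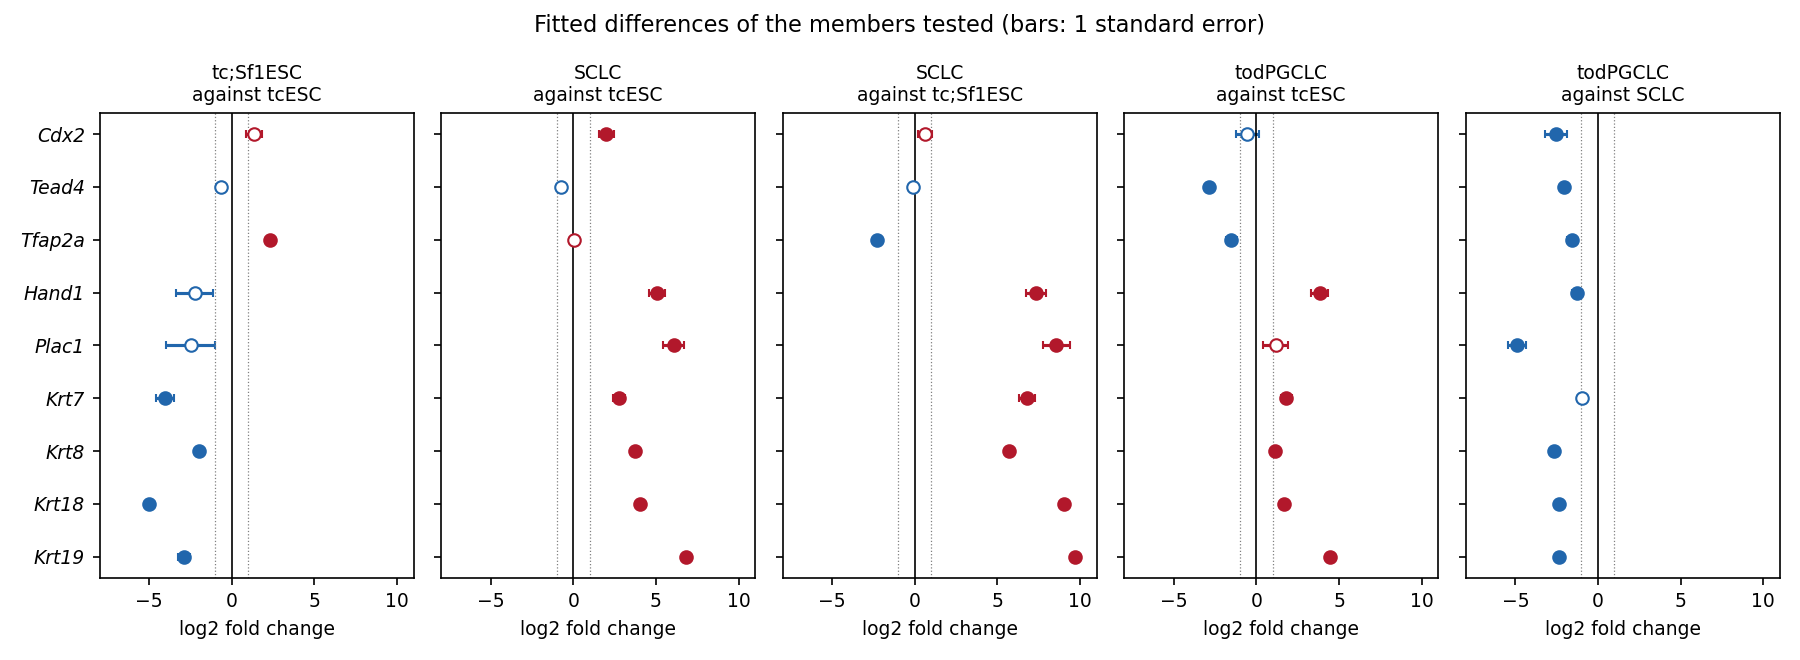
Log2 fold change of the 9 genes tested in each of the 5 comparisons, with bars of 1 standard error. Filled points were called, open points were not, red is higher and blue lower in the first-named group, and dotted lines mark a 2-fold change. The 4 keratins lie at -4.99 to -1.96 in tc;Sf1ESCs against tcESCs and at 2.76 to 6.84 in SCLCs against tcESCs.

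In SCLCs 7 of the 9 genes rose relative to tcESCs (5 of 7 without Hand1 and Plac1) and none fell, where 42.7% of all genes tested were called, 24.3% higher and 18.3% lower. Krt19 rose most (log2 fold change 6.84, standard error 0.15, adjusted p 1.37e-07 by edgeR), to 154.9 ± 23.0 CPM (SD, n = 2) from 1.40 ± 0.0910. Krt18 rose by 4.05 (0.17), Krt8 by 3.76 (0.15) and Krt7 by 2.76 (0.35). Against tc;Sf1ESCs, the parental cells of the SCLCs, the same keratins were 110-fold (Krt7), 52.6-fold (Krt8), 528-fold (Krt18) and 840-fold (Krt19) higher, and all 4 rose. Except for Krt8, these folds rest on few tc;Sf1ESC counts (7 and 8 for Krt7, 23 and 21 for Krt18, 5 and 5 for Krt19). Without SCLC replicate 2 the Krt7 log2 fold change was 2.12 relative to tcESCs and 6.15, rather than 6.78, relative to tc;Sf1ESCs. Both comparisons use the same SCLC libraries, so they are not independent. Together the 4 keratins took 0.00536% and 0.00702% of all gene counts in tcESCs, 0.000876% and 0.000882% in tc;Sf1ESCs and 0.0872% and 0.110% in SCLCs.

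Plac1 had 3 and 16 counts in tcESCs, 0 and 3 in tc;Sf1ESCs, and 361 and 880 in SCLCs. Its fitted log2 fold change relative to tcESCs was 6.08 (standard error 0.63), between 5.37 and 7.53 as each library was left out. Plac1 was tested only through its SCLC counts, so that value is a description. It stood at 399 times its tc;Sf1ESC level (95% counting interval 136 to 1937). With 3 counts in tc;Sf1ESCs in all, the fitted log2 fold change relative to them ranged from 7.61 to 12.3 as each library was left out. Hand1, also a factor of lateral mesoderm and heart, had 77 and 124 counts in SCLCs, which is 33.8 times its tcESC level (15.3 to 93.2, with 6 counts in tcESCs). Hand1 too was tested only through its SCLC counts, so its call is a description. No library of SCLCs overlapped with an ESC library for either gene. Of 4 lateral and cardiac mesoderm markers counted in the same comparison 1 rose, Myl7 (1.94), and 2 fell, Tbx20 (-2.16) and Isl1 (-1.35), beside 24.3% higher and 18.3% lower among all genes. Foxf1, Hand2 and Tnnt2, tested only through SCLCs, had 79 and 69, 29 and 29, and 15 and 30 counts there, against 2 and 2, 3 and 5, and 7 and 13 in tcESCs. The 10 listed markers summed to 10.7 to 11.9 CPM in SCLCs and 10.7 to 12.6 in tcESCs, and the part of such cells in the Hand1 level was not tested. In bulk libraries more cells with a transcript and more transcript per cell cannot be told apart.

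Cdx2 had 107 and 306 counts in SCLCs, at 4.04 and 10.5 CPM, against 2.24 and 1.63 in tcESCs. The log2 fold change relative to tcESCs was 1.99 (standard error 0.45, adjusted p 0.00560 by edgeR), and the call was lost without tcESC replicate 2 (1.75, adjusted p 0.0672). Without SCLC replicate 2 the value was 1.13 and still called. Against tc;Sf1ESCs the libraries overlapped and Cdx2 was not called (0.63, 0.42, adjusted p 0.208). Without SCLC replicate 2 that value was -0.23, and without SCLC replicate 1 it was 1.18 and called, so that it rested on which SCLC library entered the fit.

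Tfap2a stood near its tcESC level in SCLCs. It had 35 and 58 counts there, a log2 fold change of 0.068 relative to tcESCs (standard error 0.25, adjusted p 0.821 by edgeR) with overlapping libraries, and it fell by 2.26 (0.23, adjusted p 9.05e-05) relative to tc;Sf1ESCs. Tead4 had 1422 and 1898 counts in SCLCs. It lay 0.75 below tcESCs on the log2 scale (-0.75, standard error 0.099, adjusted p 0.000344 by edgeR, under the 2-fold limit) and was not called relative to tc;Sf1ESCs (-0.13, 0.099, adjusted p 0.257). The median over chromosome 6 was -0.30 relative to tcESCs and 0.052 relative to tc;Sf1ESCs. Tead4 had the highest level of the 6 trophectoderm genes per kb of exons in each of the 8 libraries except SCLC replicate 2, where Plac1 stood at 21.7 and Tead4 at 18.1 CPM per kb. Relative to tc;Sf1ESCs 6 of the 9 genes rose (4 of 7 without Hand1 and Plac1) and 1 fell, with 42.2% of all genes called, 24.1% higher and 18.1% lower. The median log2 fold change over all genes tested was 0.046 relative to tcESCs and 0.016 relative to tc;Sf1ESCs.

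In SCLCs, without Tpbpa, Ctsq, Syna and Dlx3, 7 of the 12 other trophoblast genes rose and 1 fell relative to tcESCs (median 1.59), and 10 rose and none fell relative to tc;Sf1ESCs, where 24.3% and 24.1% of all genes tested were higher. Tpbpa, a marker of the spongiotrophoblast layer of the placenta, had 927 and 2155 counts in SCLCs and 0 in each of the other 6 libraries. Dlx3, a homeobox gene, had 76 and 246 counts in SCLCs against 5 and 12 in tcESCs. The FGF receptor Fgfr2 (log2 fold change 4.24, standard error 0.18) and Rhox6 (4.23, 0.25) rose relative to tcESCs, and Eomes, which trophoblast stem cells require, fell (-1.97, 0.17), with a level not called different from that in tc;Sf1ESCs (-0.15, adjusted p 0.466 by edgeR). The other genes of differentiated placenta in the list varied in the same libraries. Ctsq (21 and 45 counts in SCLCs) and Syna, a syncytiotrophoblast gene (41 and 82), had 0 counts in tcESCs and were tested only through SCLCs. Prl3d1, of giant cells, had 0 and 1 counts, Prl2c2 2 and 10 and Psg21 0 and 14, all under the filter.

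Of 17 TEAD partners, TEAD targets and Hippo pathway genes (all those listed but Ankrd1), 10 rose and 1 fell in SCLCs relative to tcESCs (median 1.15), where 24.3% of all genes tested were higher. Yap1 itself was not called (-0.22), nor were Tead2 (-0.026) and the cofactor Vgll4 (-0.62), while Tead1 (1.15), Tead3 (1.55) and the YAP relative Wwtr1 (1.01) rose. Ccn1, a target of YAP and TEAD, measured 6.89 and 7.04 CPM in tcESCs and 311 and 194 in SCLCs (log2 fold change 5.24, standard error 0.24), and Ccn2, another, rose by 4.17 (0.35). Ankrd1, also a target, had 1 and 0 counts in tcESCs and 528 and 272 in SCLCs, and Amot, which binds YAP, rose by 5.40 (0.23). Nf2, an upstream regulator of the pathway, fell by 1.33 (0.078).

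Of 11 other intermediate filament and lamin genes, 7 fell and 2 rose in SCLCs relative to tcESCs (median -1.43). Nefm (a neurofilament) fell by 3.64 (0.18), Ina (alpha-internexin) by 2.23 (0.20) and the B-type lamin Lmnb2 by 1.78 (0.070), and Vim, at 56.1 and 45.0 CPM, fell by 1.43 (0.10). Des (desmin, of muscle) rose by 3.17 (0.35) and Lmna by 1.99 (0.069). Desmosomes anchor keratin filaments at the cell surface, and of their 12 genes tested 4 rose, among them Dsc2 (2.68, 0.39), the plakophilin Pkp3 (2.49, 0.16) and desmoplakin, Dsp, with 962 and 1190 counts in tcESCs and 2765 and 5475 in SCLCs, while 3 fell, led by the linker Dst (-1.69, 0.088), with 24.3% of all genes tested called higher and 18.3% lower. Of the other keratins 12 of 16 were under the filter. Of the 4 tested, Krt17 fell (-1.90, 0.33), and Krt23 and Krt14, tested only through SCLCs, had 84 and 42 and 27 and 50 counts there, against 0 and 1 and 4 and 2 in tcESCs. Esrp1, a splicing regulator of epithelia, rose by 3.67 (0.12) and Grhl2 by 2.50 (0.21), and of the 9 epithelial regulators counted 4 rose and 1 fell.

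**Figure D4:**
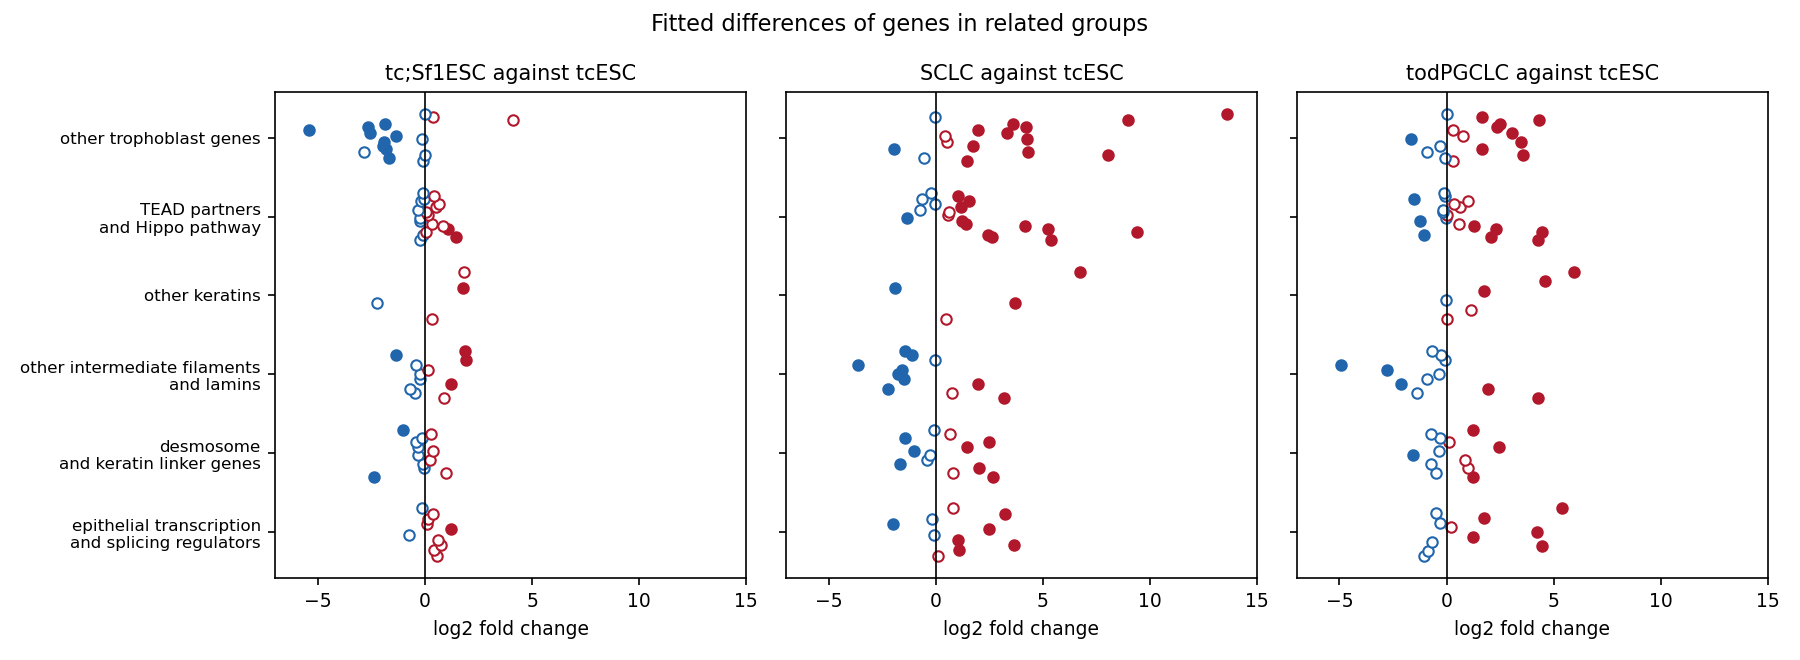
Log2 fold change of each tested gene in 6 related groups, for tc;Sf1ESCs, SCLCs and todPGCLCs against tcESCs, with 1 point per gene. Filled points were called, and red is higher and blue lower than in tcESCs. Of the 12 other trophoblast genes that averaged more than 10 counts in the ESC libraries 9 fell in tc;Sf1ESCs and 7 rose in SCLCs. Points of genes with few counts, such as Tpbpa at the right end for SCLCs, depend on the prior count.

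Markers of other epithelia moved with these genes in SCLCs. All 8 visceral endoderm markers counted were called higher in SCLCs than in either ESC line, beside 24.3% and 24.1% of all genes, and the other 4 (Afp, Apoa1, Foxa2 and Ttr) were tested only through the groups where they were high. The summed level of the list was 2949 CPM in SCLC replicate 1 and 4899 in replicate 2, against 46.2 to 46.9 in tcESCs and 108 to 115 in tc;Sf1ESCs. The endocytic receptor Cubn led it at 1582 CPM. SCLC replicate 2 was the higher of the pair for all 10 genes described here, by 1.21 times (Tead4) to 2.61 times (Cdx2), with 2.22 times for Plac1 and 2.08 times for Krt7, while 49.6% of all genes expressed were higher in that library. The other trophoblast genes summed to 2466 CPM in replicate 1 and 4011 in replicate 2, of which Peg10 made up 1995 and 3276. The Sertoli markers summed to 477 and 471, of which Gata4 made up 415 and 431. Among the rest of that list Dmrt1 (35.7 and 13.3 CPM) and Sox9 (7.77 and 4.47) were lower in replicate 2, and Nr5a1 (12.9 and 18.4) was higher. Mesothelium markers summed to less than 10 CPM in SCLCs, against 4.49 to 4.73 in tcESCs. The part of visceral endoderm-type transcripts in the keratin and trophectoderm levels was not tested.

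In todPGCLCs, relative to tcESCs, 5 of the 9 genes rose (the 4 keratins, and Hand1 from few counts), 2 fell (Tead4 and Tfap2a) and 2 were not called (Cdx2 and Plac1). Without Hand1 and Plac1, 4 of 7 rose and 2 fell. Of the 16707 genes tested 29.4% were called, 18.1% higher and 11.2% lower. Krt19 rose most among the keratins (log2 fold change 4.46, standard error 0.15, adjusted p 2.09e-07 by edgeR), Krt7 by 1.82 (0.32), Krt18 by 1.67 (0.15) and Krt8 by 1.11 (0.20). The Krt8 call was close to the 2-fold limit and was lost in a test against that limit, without tcESC replicate 1 (0.90) and without todPGCLC replicate 2 (0.80).

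Tead4 showed its lowest level in todPGCLCs, with 474 and 361 counts (17.2 and 13.6 CPM), and fell by 2.84 (standard error 0.13, adjusted p 7.93e-07 by edgeR) relative to tcESCs. The median over the genes of its chromosome, 6, was -0.29 in that comparison. Tfap2a, with 13 and 20 counts, fell by 1.51 (0.32, adjusted p 0.00323). Its paralogue Tfap2c, which germ cells require, rose by 1.67 (0.14), from 1488 and 1918 counts in tcESCs to 5100 and 5869. Hand1 had 40 and 49 counts, 15.4 times its tcESC level (95% counting interval 6.79 to 43.0). It was tested only through SCLCs and todPGCLCs, so its call is a description. Of 4 lateral and cardiac mesoderm markers counted in the same comparison Bmp4 rose (3.36) and Tbx20 fell (-1.39), beside 18.1% higher and 11.2% lower among all genes. Actc1, Foxf1 and Tnnt2, which averaged under 10 counts in the ESC lines, had 51 and 63, 9 and 10, and 30 and 26 counts in todPGCLCs, against 0 and 1, 2 and 2, and 7 and 13 in tcESCs. The list summed to 47.4 to 52.1 CPM in todPGCLCs, of which Bmp4 made up 40.8 on average, against 10.7 to 12.6 in tcESCs, and the part of such cells in the Hand1 level was not tested. Hand1 and Krt19 lie on chromosome 11, whose median log2 fold change in this comparison was 0.52. Plac1, with 26 and 17 counts, was not called (adjusted p 0.225).

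The todPGCLC libraries disagreed on Cdx2, with 11 and 63 counts (0.399 and 2.37 CPM). Relative to tcESCs it was not called (log2 fold change -0.56, standard error 0.70, adjusted p 0.516 by edgeR). Without replicate 1 the value was 0.23, and without replicate 2 it was -2.32 and called. The mesoderm factor T, with 286 and 716 counts in the same libraries, was also higher in replicate 2.

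Against SCLCs, 8 of the 9 genes fell in todPGCLCs (6 of 7 without Hand1 and Plac1) and none rose, with 38.0% of genes tested called, 19.5% lower and 18.5% higher. Krt8 (-2.64, standard error 0.20), Krt19 (-2.38, 0.11) and Krt18 (-2.38, 0.14) fell by like amounts. Plac1, tested only through its SCLC counts, had a value of -4.92 (0.54). Cdx2 (-2.54, 0.65), Tead4 (-2.08, 0.13), Tfap2a (-1.57, 0.32) and Hand1 (-1.26, 0.31) fell too. The Cdx2 value was called but moved with the library left out, to -1.69 without SCLC replicate 2, -1.75 without todPGCLC replicate 1 and -4.30 without todPGCLC replicate 2, and that of Plac1 was -4.23 without SCLC replicate 2. The Hand1 call was lost without SCLC replicate 2 (-0.96).

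Elf5, the factor that separates the trophoblast lineage from the embryo proper, stayed near the limit of detection throughout. It had 1 and 2 counts in tcESCs, 1 and 2 in tc;Sf1ESCs, 5 and 13 in SCLCs and 10 and 20 in todPGCLCs. The ratio to tcESCs was 6.05 (95% counting interval 1.77 to 32.1) in SCLCs and 10.4 (3.22 to 53.1) in todPGCLCs. With every gene of at least 1 count tested, edgeR gave an adjusted p of 0.0261 and DESeq2 0.141 for SCLCs, and 0.000542 and 0.0368 for todPGCLCs.

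Related groups in todPGCLCs, relative to tcESCs, moved as follows. Of 12 other trophoblast genes 5 rose and 1 fell, beside 18.1% higher and 11.2% lower among all genes, led by Fgfr2 (3.48, standard error 0.20) and Rhox9 (2.51, 0.30). Dlx3 and Gcm1, not counted, had 84 and 121 and 84 and 86 counts, against 5 and 12 and 5 and 15 in tcESCs, and Tpbpa had 0 counts. Of the 17 TEAD partners and Hippo pathway genes 4 rose and 3 fell, with Amot at 80.3 and 240 CPM against 7.60 and 8.21 in tcESCs. Nefm fell by 4.94 (0.27) and Lmna by 2.13 (0.084), while Des rose by 4.29 (0.31). Esrp1 rose by 4.44 (0.14) and Grhl2 by 4.22 (0.19), and among desmosomal genes Pkp2 rose (2.44, 0.13) and Jup, plakoglobin, fell (-1.56, 0.064). Of the 9 germ cell markers 5 rose and none fell, Prdm1 most (4.46). Of the 8 visceral endoderm markers counted 5 rose, Cubn (3.67), Rhox5 (3.57), Gata6 (3.27), Apob (1.83) and Sox17 (1.75), and Apoa1, with 20 and 24 counts, Afp, with 68 and 35, and Foxa2 were higher from few counts. The list summed to 386 and 407 CPM, against 46.2 and 46.9 in tcESCs, with Rhox5 at a mean of 349, and Cubn stood at 6.17 and 7.30 CPM, against 0.472 and 0.522. Of 3 mesothelium markers counted 2 rose, and the list summed to 38.7 and 40.4 CPM, against 4.49 and 4.73 in tcESCs, led by Lrrn4 at 24.9. The part of these markers' cell types in the keratin levels was not tested.

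The genes closest to Krt8 in pattern over the 8 libraries were Rnf157 (a ubiquitin ligase), Gadd45g (a stress response gene), Bag2 (a co-chaperone), Mertk (a receptor tyrosine kinase) and Gm11400, at Euclidean distances of 0.657 to 1.19 in centred log2 CPM among the 9743 genes that averaged 10 CPM or more. The other keratins were further away. Krt7 ranked 198 (distance 2.82), Krt18 636 (4.01) and Krt19 1675 (4.91), so that many genes outside the keratin family lay closer to Krt8 than its own filament partner did. This distance counts the size of the changes as well as their direction. Rnf157 measured 8.19 and 9.97 CPM in tcESCs, 1.81 and 1.95 in tc;Sf1ESCs, 93.2 and 103 in SCLCs and 20.8 and 29.6 in todPGCLCs.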

How the data were processed

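The 8 libraries were made from poly-A RNA with a strand-specific protocol. The authors deposited raw read counts per gene, without normalization. Per the submitters' processing notes, reads were trimmed with Trim Galore, aligned to GRCm38 with STAR 2.4.0 and processed with Picard and HTSeq, and DESeq2 is named. The annotation release and the counter's strand setting are not given in the sources used here. Reads set aside as ambiguous, unplaced or not unique (35.6% to 41.6% of records) are not in the gene counts, so reads shared with near-identical copies are lost. Of 46078 gene IDs 45229 were named with GENCODE M21.

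Differences were fitted with edgeR 4.0.16 (TMM, quasi-likelihood test, limma 3.58.1, R 4.3.3), with DESeq2 1.42.0 as an alternative. Comparisons among the ESC lines and SCLCs came from a joint fit of their 6 libraries (16481 genes with a mean count above 10), and those of todPGCLCs from a fit of all 8 (16707 genes). Genes were called at a fold change above 2 and a Benjamini-Hochberg adjusted p under 0.05. Counting intervals of ratios are at 95%. The 10 genes and the lists were chosen with earlier results of these data known. From each related list at most 4 called genes a comparison were named by size of change among those with a mean of at least 1 CPM, and from marker lists the highest gene. Others named (Eomes, Ets2, Ascl2, Rhox9 and Gata2 in tc;Sf1ESCs, Eomes, Krt23, Krt14, Vim, Lmnb2, Nf2, Yap1, the TEAD genes, Vgll4, Wwtr1 and the placental genes with few counts in SCLCs, Gcm1 and Tfap2c in todPGCLCs, and markers used as checks) were chosen after their values were seen. The edgeR step was tested on simulated data. Alternatives were RLE factors, library totals, filterByExpr, every gene with at least 1 count, only the 4 libraries compared, all 8 libraries, DESeq2, an adjusted p under 0.01, a test against a 2-fold change, a replicate block and leaving out each library. The use of DESeq2 without a filter (1 count or more) and leaving genes with few ESC counts out of the list counts were decided after seeing the data.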

Additional observations from a re-analysis of the deposited data

How the results depend on the processing

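The number of all genes called between tc;Sf1ESCs and tcESCs was 1922, and it was 594 in a test against a 2-fold change and 1119 to 2304 as each library was left out. Between todPGCLCs and tcESCs it was 4906, and 3078 in the test against a 2-fold change. For the genes described here, directions and calls were kept in 755 of the 781 values computed under alternatives, 14 gained a call, 8 lost one and 4 changed sign. The changes of sign were in values that were not called. They were Tead4 in SCLCs against tc;Sf1ESCs (0.016 without SCLC replicate 1, -0.29 without replicate 2), Tfap2a in SCLCs against tcESCs (-0.27 without SCLC replicate 2, 0.35 without replicate 1), Cdx2 in SCLCs against tc;Sf1ESCs (-0.23 without SCLC replicate 2, 1.18 without replicate 1) and Cdx2 in todPGCLCs against tcESCs (0.23 without todPGCLC replicate 1, -2.32 without replicate 2). Beside the calls named above, Tfap2a lost its call in both todPGCLC comparisons (adjusted p 0.111 and 0.0618) and Hand1 its call against SCLCs (0.252) in the test against a 2-fold change. Cdx2 in tc;Sf1ESCs was called in 6 alternatives, and Plac1 there in 4. The cause of these changes was not tested.

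Deviations from the group means were nearly uncorrelated between libraries that share a number (-0.026 to 0.062). With only 2 libraries in each group, that cannot exclude that same-numbered libraries were handled together. With a replicate block 1918 genes were called between tc;Sf1ESCs and tcESCs, 7023 between SCLCs and tcESCs and 4893 between todPGCLCs and tcESCs, and Plac1 was called lower in tc;Sf1ESCs (-2.44, adjusted p 0.0442). No other call of these genes changed with the block. Depth limits Elf5 in both ESC lines, and Hand1 and Plac1 in tc;Sf1ESCs, where the counts are at or under 3 per library. Krt19 (5 and 5 counts) and Krt7 (7 and 8) were also low in tc;Sf1ESCs.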
